A study of Mus musculus with 120 samples.

Results

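The diet response of the liver was examined in females of CC042, 1 of 10 Collaborative Cross mouse strains, a panel of inbred lines in which the genomes of several founder strains were mixed. The 6 libraries labelled as CC042 females were taken out of 120, 3 from the control diet and 3 from the high-fat, high-sucrose (HF/HS) diet. All genes with a mean deposited value of at least 1 over these 6 libraries were kept, which left 11896 of 24882 rows. The mice had been fed for 12 weeks. The HF/HS diet drew 42% of its energy from milkfat, contained 0.2% cholesterol and was over 30% sucrose by the labels. Controls were fed a diet of the same ingredients with low fat and less sucrose. The labels name no genotype or treatment other than strain, sex and diet, and RNA was taken from whole frozen liver. Whether the 3 libraries of each group stand for 3 animals is not stated in the labels, and p-values therefore cover the spread among libraries alone, which may be technical. CC042 males on both diets (6 libraries) were in the fit of the diet effect, where they helped to set the spread. They also entered the test of a difference between the sexes. Females of 7 other strains (40 libraries) entered the test of a difference between strains. Males of these strains were in that fit too and helped to set its spread.

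Liver cells make cholesterol from acetyl-CoA through mevalonate and squalene, and take it up from lipoproteins in the blood. When membranes hold enough sterol, SREBP-2 stays in the endoplasmic reticulum with SCAP and INSIG, and the genes of synthesis and uptake are transcribed less. The related factor SREBP-1c, together with ChREBP, drives fatty acid synthesis after sugar and insulin, whereas PPARα drives the uptake and oxidation of fatty acids, and LXR drives sterol efflux.

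Values are FPKM-like numbers that the authors rescaled, so that the 75th percentile of each of these 6 libraries was close to 10, and the sequencing depth is unknown. The 6 libraries summed to 1106756 to 1194904 units and had 33.7% to 34.9% of rows at 0. Correlations of log2 values were 0.967 to 0.971 among controls, 0.961 to 0.966 among HF/HS libraries and 0.951 to 0.962 between the diets. Xist, which is transcribed from the inactive X chromosome, was at 79.2 to 115 in the female and at 0.511 to 0.853 in the male CC042 libraries. Alb, the defining hepatocyte marker, was listed at 0 in all 6 libraries, as in 104 of the 120, and the summed level of the 14 hepatocyte markers was 49514 to 59565 in controls and 48610 to 49981 on HF/HS. Because the livers were sequenced in bulk, fewer cells of a type and less RNA per cell cannot be told apart.

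On the HF/HS diet 451 genes rose and 590 fell in CC042 females, which is 3.79% and 4.96% of the genes tested (limma on log2(value + 1), adjusted p under 0.05). These shares are the background for the counts of list members that rose and fell below. The median log2 difference over all 11896 genes was 0.01. Differences over 2-fold on this scale, which understates the change of low genes, were found for 24 genes that rose and 70 that fell. Among the called genes, 1030 of 1041 had no overlap between the 3 control and the 3 HF/HS values, against 27.2% of all genes tested. Calls and overlap rest on the same values, so the lack of overlap is no separate support. Genes named for the largest diet differences were taken only from those without overlap. The spread came from the 12 CC042 libraries of both sexes. With the 6 female libraries alone 236 genes were called, 231 of them among the 1041, and with all 40 groups of the series in the fit 195 were called, 171 of them among the 1041.

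**Figure D1:**
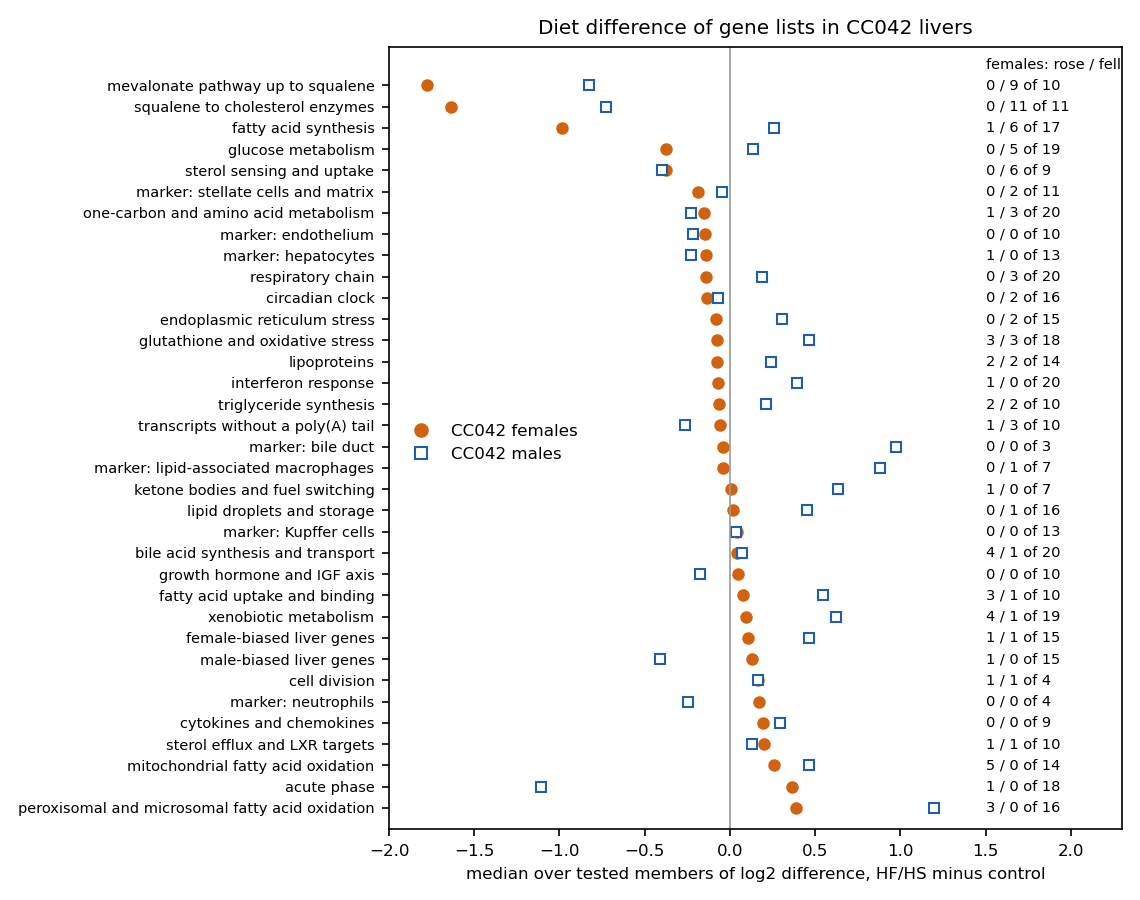
Each row is a gene list, and its position on the horizontal axis is the median log2 difference, HF/HS minus control, over the members tested in CC042 females (filled circles) and CC042 males (open squares). The numbers at the right count the members that rose and fell in females: the 2 cholesterol synthesis lists lie at -1.78 and -1.63, and fatty acid synthesis lies at -0.98 in females and at 0.26 in males.

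Transcripts of cholesterol synthesis genes fell nearly as a whole. Of 21 tested genes of the pathway 20 fell and 0 rose, with a median log2 difference of -1.63 against 0.01 over all genes, and none of the 21 overlapped between the diets, where 27.2% of all genes tested had no overlap. Sqle, the monooxygenase that turns squalene into its epoxide, was at 103, 126 and 71.1 in the 3 controls and at 12.2, 2.64 and 9.03 on HF/HS, and fell by the largest amount of any gene named by the rule (log2 difference -3.65 ± 0.43 SE, adjusted p = 0.00235). Its HF/HS libraries were all far under its controls, with the lowest value in HF/HS library 2.

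The genes of the enzymes on the way to squalene moved with Sqle, except Ggps1. Hmgcs1, an early enzyme of the mevalonate pathway, went from 111, 92.3 and 86.8 to 40.7, 25.6 and 41.4 (log2 difference -1.43 ± 0.18 SE, adjusted p = 0.00137). Mvd, the mevalonate diphosphate decarboxylase, went from 45, 40.5 and 27.7 to 7.1, 2.76 and 3.99 (log2 difference -2.83 ± 0.31 SE, adjusted p = 0.0012), and Idi1, the isomerase of the next step, from 124, 117 and 93.8 to 30.4, 20.6 and 23.5 (log2 difference -2.13 ± 0.15 SE, adjusted p = 3.03e-05). In all of these the groups stood apart, and HF/HS library 2 was the lowest of the 6. Fdps, the farnesyl diphosphate synthase, was at 426, 521 and 307 in controls and at 91.7, 31.6 and 56.5 on HF/HS (log2 difference -2.88 ± 0.34 SE, adjusted p = 0.00181). The other falls on this stretch were Pmvk, Mvk, Fdft1 and Acat2, with log2 differences of -2.19, -1.20, -1.29 and -0.66. Ggps1, which branches off to protein prenylation, was the only one of the 10 genes that did not pass the test (6.98, 7.85 and 8.31 in controls, 6.67, 6.91 and 6.93 on HF/HS, log2 difference -0.15, adjusted p = 0.406).

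All 11 genes of enzymes from squalene to cholesterol fell. Cyp51, the lanosterol demethylase, was at 81.3, 83 and 70.2 in controls and at 18.2, 7.39 and 12.2 on HF/HS (log2 difference -2.62 ± 0.24 SE, adjusted p = 0.000361). Nsdhl, a dehydrogenase that helps to remove sterol methyl groups, went from 65, 64.4 and 54.9 to 15.9, 5.66 and 11 (log2 difference -2.50 ± 0.27 SE, adjusted p = 0.00111). Both had their lowest value in HF/HS library 2. Neither overlapped between the diets, a condition of the rule that named them among the largest falls. Dhcr7, the reductase of the final step in one branch, went from 35.9, 37.3 and 31.7 to 10.1, 3.69 and 7.08 (log2 difference -2.26 ± 0.25 SE, adjusted p = 0.00102). Msmo1, a sterol methyl oxidase, fell from 164, 126 and 109 to 40.3, 20.1 and 26.3, and Lss, Tm7sf2, Sc5d and Hsd17b7 fell by 1.63, 1.54, 1.39 and 1.22 on the log2 scale. Ebp, a sterol isomerase, fell by 0.46, from 226, 239.6 and 219 to 172, 149 and 176. With the 6 female libraries alone 15 of the 21 genes were called and with all 40 groups 16, in both cases all as falls, and leaving out any 1 library left 18 or 19.

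**Figure D2:**
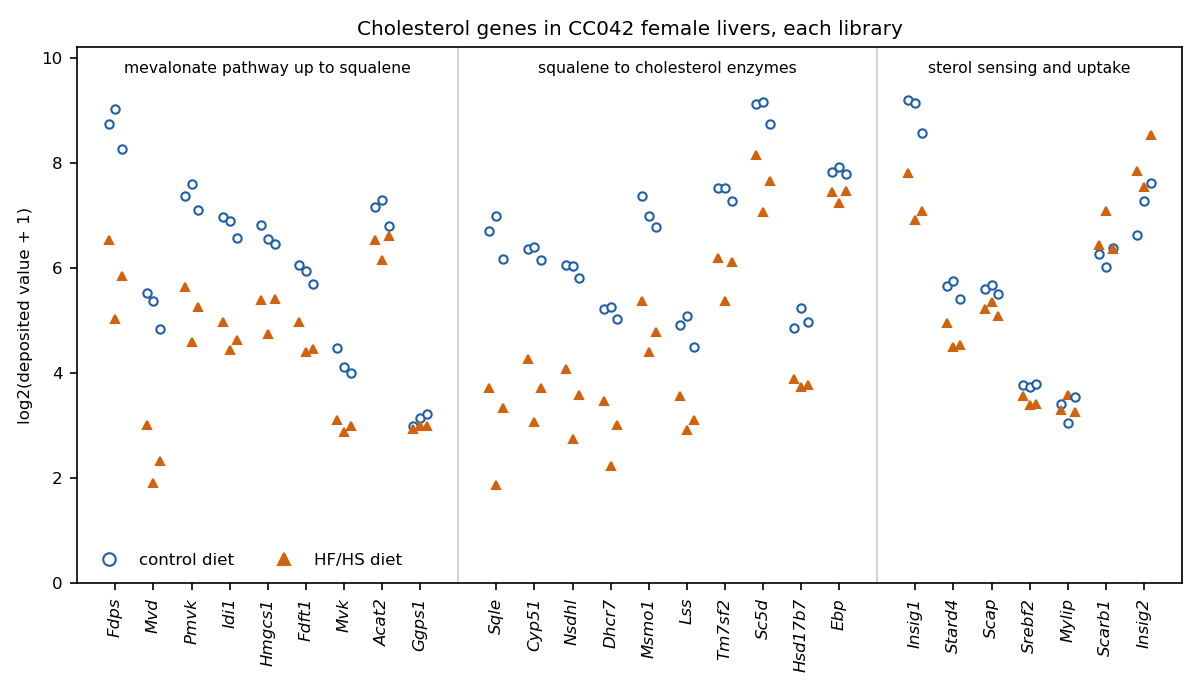
Every CC042 female library is drawn for the cholesterol genes named in the text, with controls as open circles and HF/HS libraries as triangles, on a vertical axis of log2(deposited value + 1). Within a gene the libraries are placed left to right as 1, 2 and 3, and in the 2 synthesis panels the HF/HS triangles lie under the control circles for each gene drawn.

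The promoters of these genes were read from RefSeq (GRCm38.p6, the same build as mm10) because the genes fell together and are known targets of SREBP, which binds beside the CCAAT-binding factor NF-Y. Of the 21 genes 16 had an entry with 250 bases before and 50 after the start. The short CCAAT box ATTGG, searched on both strands, was present in 15 of these 16 (93.8%), against 42.9% of the tested genes and 41.1% of all 27025 genes with an entry. It was in 47.7% of genes that fell and 43.2% of genes that rose. The share was 80% in peroxisomal and microsomal oxidation, a list with 3 rises and 0 falls. It was 80% in sterol sensing and uptake, 71.4% in fatty acid synthesis and 33.3% in interferon response. The sterol element TCACNCCAC, also on both strands, was present in 1 of the 16 (6.25%), in 14 of 417 genes that fell (3.36%), in 3 of 338 that rose (0.888%) and in 1.49% of the tested genes. These counts describe exact letters in a window, so a site with other letters was not counted, and they were not tested. The promoters of 4 genes are shown over the 180 bases before the start, with CCAAT boxes and the sterol element in capitals, as examples of how the boxes sit near the start. Hmgcs1 holds the only match to the sterol element among the 16, at position -137 counted from the gene start.
Hmgcs1, chr13:119690171-119690350, plus strand: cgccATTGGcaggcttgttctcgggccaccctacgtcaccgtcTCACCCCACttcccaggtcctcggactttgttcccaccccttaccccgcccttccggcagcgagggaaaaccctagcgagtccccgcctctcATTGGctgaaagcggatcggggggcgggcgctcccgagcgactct
Idi1, chr13:8885426-8885605, plus strand: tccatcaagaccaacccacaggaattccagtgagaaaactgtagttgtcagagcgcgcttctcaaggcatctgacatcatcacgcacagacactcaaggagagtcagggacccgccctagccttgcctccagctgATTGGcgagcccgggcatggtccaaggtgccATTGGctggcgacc
Lss, chr10:76531425-76531604, plus strand: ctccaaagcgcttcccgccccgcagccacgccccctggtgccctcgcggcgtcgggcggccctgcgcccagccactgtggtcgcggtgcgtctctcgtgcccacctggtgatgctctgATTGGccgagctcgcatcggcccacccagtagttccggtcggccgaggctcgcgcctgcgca
Cyp51, chr5:4104698-4104877, minus strand: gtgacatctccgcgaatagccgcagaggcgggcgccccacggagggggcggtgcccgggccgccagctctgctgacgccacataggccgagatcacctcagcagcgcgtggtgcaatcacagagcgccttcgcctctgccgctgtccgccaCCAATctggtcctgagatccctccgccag

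Genes that sense sterol and take it up fell in part. Of 9 tested, 6 fell and 0 rose, with a median log2 difference of -0.37. Insig1, which retains SREBP in the endoplasmic reticulum and is itself an SREBP target, was at 580.1, 560.1 and 379 in controls and at 223, 119 and 134 on HF/HS (log2 difference -1.70 ± 0.32 SE, adjusted p = 0.0118). Its groups did not overlap. Stard4, a sterol carrier, Scap and Srebf2 fell by 0.94, 0.37 and 0.31. Insig2, Mylip and Scarb1 did not pass the test, with log2 differences of 0.80, 0.04 and 0.41. Of the 6 falls, the 6-library fit called 2 and the 40-group fit 1, and 3 held in the least favourable fit without 1 library.

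Transcripts of several fatty acid synthesis enzymes were lower on HF/HS. Of 17 tested genes 6 fell and 1 rose, with a median of -0.98. Acss2, which makes acetyl-CoA from acetate, was at 517, 687 and 385 in controls and at 99.5, 35.7 and 77.1 on HF/HS (log2 difference -2.97 ± 0.36 SE, adjusted p = 0.00232). Acly, which makes it from citrate, was at 453, 769 and 266 and 114, 56.4 and 125 (log2 difference -2.27 ± 0.44 SE, adjusted p = 0.015), and Acaca, the acetyl-CoA carboxylase of the cytosol, was at 139, 191 and 98.9 and 54.4, 34.5 and 54.7 (log2 difference -1.54 ± 0.24 SE, adjusted p = 0.00539). The groups did not overlap in any of the 3 genes, and control library 2 was the highest. Fasn, the fatty acid synthase, was at 530.3, 727 and 260.2 in controls and at 171, 72.7 and 118 on HF/HS (log2 difference -2.02 ± 0.47 SE, adjusted p = 0.0325). Elovl6, which lengthens palmitate, was at 369, 419 and 214 and 70.1, 55.6 and 71.2 (log2 difference -2.28 ± 0.35 SE, adjusted p = 0.006). Acacb, the carboxylase at the mitochondria, fell by 0.98 on the log2 scale.

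Several further members were lower in the mean without passing the test, and their controls varied widely. Me1, which supplies NADPH, was at 299, 446 and 189 in controls and at 114, 53.7 and 125 on HF/HS (adjusted p = 0.061), Thrsp at 2472, 2944 and 1441 and 1223, 527 and 968 (adjusted p = 0.0695), and Pnpla3, a lipase-like protein of lipid droplets, at 126, 161 and 63.7 and 25.1, 1.99 and 13 (adjusted p = 0.0576). None of these 3 genes overlapped between the diets. The transcription factor genes did not follow: Srebf1 was at 159, 124 and 72.9 in controls and at 165, 131 and 193 on HF/HS (adjusted p = 0.47), and Mlxipl, which encodes ChREBP, at 113, 113 and 88.6 and 87.6, 122 and 95.5 (adjusted p = 0.855). Scd1, the stearoyl-CoA desaturase, overlapped fully (5726, 9068 and 3745 and 4796, 2366 and 9865, adjusted p = 0.789). The member that rose was Elovl3, an elongase of very long chains that is male-biased in mouse liver, at 3.22, 2.25 and 3.81 in controls and at 16.3, 12.7 and 13.8 on HF/HS (log2 difference 1.91 ± 0.21 SE, adjusted p = 0.000843). All 3 HF/HS libraries lay above its controls, and both groups lay far under the males, which were at 297, 305 and 313 on the control diet.

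For some of these genes the diet effect differed between the sexes. In males the median of the list was 0.26, and the difference of the diet effect between females and males, tested as an interaction in the same fit, was lower in females for 5 of the 17 genes and higher for 1, Elovl3. The 5 were Elovl6, Acss2, Acly, Acaca and Me1, whose female change alone was not called. Fasn and Acacb, which fell in females, did not pass the interaction test. Over all genes that interaction was called higher in females for 559 genes and lower for 689, which is 4.7% and 5.79% of those tested. Elovl6 in males was at 84.3, 68.6 and 49.5 on control and at 188, 147 and 81.8 on HF/HS, and the female minus male difference was -3.27 ± 0.49 SE, adjusted p = 0.00654. Male Acly was at 356, 307 and 245 and 397, 459 and 252 (difference -2.53 ± 0.62 SE, adjusted p = 0.0356), male Acss2 at 377, 317 and 249 and 256, 263 and 208 (-2.61 ± 0.51 SE, adjusted p = 0.0155), and male Acaca at 88.4, 83.7 and 73.6 and 104, 111 and 82.5 (-1.80 ± 0.34 SE, adjusted p = 0.0122). In each of the 4 genes the female controls stood above the male controls in their mean. Of the 21 cholesterol genes 11 also had a larger fall in females by this test, among them Mvd (-2.71 ± 0.44 SE, adjusted p = 0.00707), Fdps (-2.05 ± 0.47 SE, adjusted p = 0.029) and Nsdhl (-1.77 ± 0.39 SE, adjusted p = 0.0214), with male medians of -0.83 and -0.73 for the 2 lists. Sqle did not pass it, at -2.09 ± 0.61 SE, adjusted p = 0.0631. When all 40 groups were in the fit the interaction was called for 75 genes in place of 1248. In the 6-library fit 1 of the 6 fatty acid synthesis genes stayed called and in the 40-group fit 3, and the call of Acly was lost without control library 1 (adjusted p = 0.0514). The calls of Acacb and Fasn held in 4 and 2 of 6 fits without 1 library (highest adjusted p of 0.075 and 0.104).

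**Figure D3:**
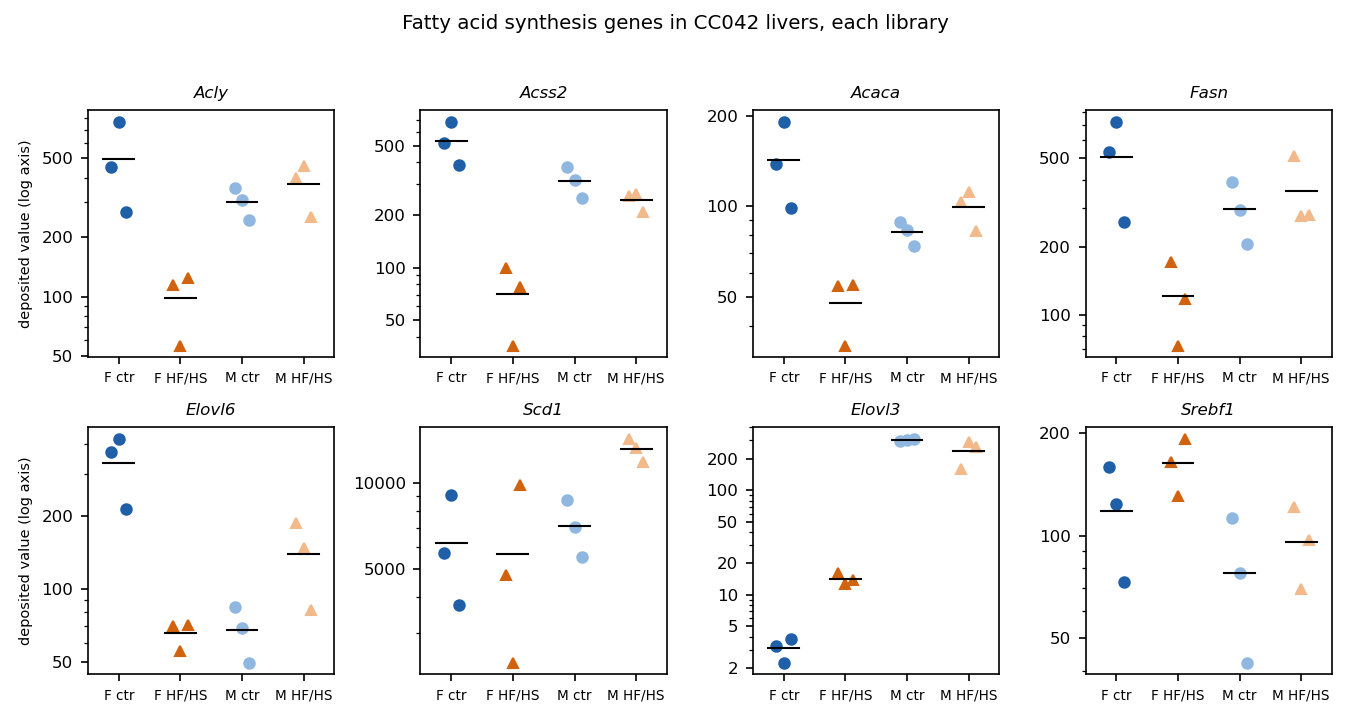
Deposited values of 8 fatty acid synthesis genes on log axes, 1 point for each CC042 library and a black line at each group mean, for females (F) and males (M) on the control (ctr) and HF/HS diets. Acly, Acss2, Acaca, Fasn and Elovl6 have female HF/HS points under all female controls, and the male groups of Acly, Acaca and Fasn overlap.

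Genes that feed lipid synthesis with NADPH and sugar carbon were also lower. Of 19 tested genes of glucose metabolism 5 fell and 0 rose (median -0.37), against 4.96% and 3.79% of all genes. G6pdx, the first enzyme of the pentose phosphate pathway, was at 13.9, 22.4 and 11.7 in controls and at 4.31, 4.09 and 3.35 on HF/HS (log2 difference -1.75 ± 0.21 SE, adjusted p = 0.00118). Pgd, a later NADPH-yielding step, was at 38.2, 51.5 and 33.9 and 25.3, 17 and 26.6 (log2 difference -0.82 ± 0.20 SE, adjusted p = 0.0287), and Slc2a2, the glucose transporter of hepatocytes, at 308, 311 and 278 and 232, 205 and 205 (log2 difference -0.48 ± 0.08 SE, adjusted p = 0.006). The diets did not overlap in any of these 3. Khk, which phosphorylates fructose, and Pygl, the glycogen phosphorylase, fell by 0.53 and 0.37. Pklr, G6pc and Pck1 were not called, with log2 differences of -0.71, -0.48 and -0.21. The diet effect was lower in females than in males for 6 of the 19 genes and higher for 1, against 5.79% and 4.7% of all genes, with Slc2a2 among the lower (males 218, 199.5 and 185 on control and 305, 287 and 261 on HF/HS, difference -0.98 ± 0.12 SE, adjusted p = 0.00151). The 6-library fit called 2 of the 5 falls and the 40-group fit 1, and the calls of Pgd, Pygl and Khk held in 3, 3 and 2 of 6 fits that left out 1 library.

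Triglyceride synthesis genes had calls in both directions and lipid droplet genes had 1 call, where 3.79% of all genes rose and 4.96% fell. Of 10 triglyceride synthesis genes 2 rose and 2 fell (median -0.07): Gpam, the first acyltransferase, was at 224, 275 and 135 in controls and at 117, 63.7 and 85.4 on HF/HS (log2 difference -1.22 ± 0.30 SE, adjusted p = 0.034), and Dgat2, the last, at 709.8, 706 and 557 and 471, 485 and 536 (log2 difference -0.40 ± 0.09 SE, adjusted p = 0.0208). Gyk, the glycerol kinase, and Agpat3 rose by 0.40 and 0.25. Lpin1, a phosphatidate phosphatase, was lower in all 3 HF/HS libraries without passing the test (114, 186 and 70.5 and 29.5, 28.6 and 25.8, adjusted p = 0.0664). Among 16 genes of lipid droplets only Abhd5, the activator of adipose triglyceride lipase, was called, as a fall from 23.2, 30.2 and 29.4 to 19.4, 16.3 and 16.6 (log2 difference -0.63 ± 0.10 SE, adjusted p = 0.00423). Plin2, the main droplet coat protein of hepatocytes, overlapped between the diets (214, 493 and 557 in controls, 374, 310.4 and 359.9 on HF/HS). So did Cidec (1.01, 1.62 and 1.11 and 1.23, 0.99 and 2.56). The 6-library and 40-group fits called 0 of the 4 triglyceride synthesis genes, and the calls of Gpam and Dgat2 held in 2 of 6 fits without 1 library.

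Single genes of fatty acid uptake rose or fell, and some oxidation genes rose by smaller amounts. Of 10 uptake and binding genes 3 rose and 1 fell (median 0.08). Cd36, a scavenger receptor and fatty acid translocase, was at 61.7, 51.8 and 51 in controls and at 132, 105 and 183 on HF/HS (log2 difference 1.31 ± 0.18 SE, adjusted p = 0.00291). Fabp2, a fatty acid binding protein best known from intestine, was at 71.5, 105 and 80.4 and 230.5, 176 and 330.1 (log2 difference 1.48 ± 0.24 SE, adjusted p = 0.00657), and Slc27a2, an acyl-CoA synthetase and transporter, at 883, 896 and 1081 and 1304, 1464 and 1343 (log2 difference 0.53 ± 0.09 SE, adjusted p = 0.00526). All 3 genes had every HF/HS library above every control, a condition of the rule that named Cd36 and Fabp2 among the largest rises. Fabp5, a binding protein that is also listed among markers of lipid-associated macrophages, fell from 366, 489 and 344 to 151, 66.3 and 49.2 (log2 difference -2.31 ± 0.39 SE, adjusted p = 0.00897). The male libraries were also lower, at 477, 363 and 264 on control and at 85.1, 68.5 and 57.1 on HF/HS. Cd36 and Fabp2 kept their calls in the 6-library and 40-group fits.

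Of 14 tested genes of mitochondrial fatty acid oxidation 5 rose and 0 fell (median 0.26), and 12 of the 14 did not overlap between the diets, against 27.2% of all genes. Acadm, the medium-chain acyl-CoA dehydrogenase, was at 202, 236 and 247 in controls and at 289.9, 302 and 376 on HF/HS (log2 difference 0.49 ± 0.10 SE, adjusted p = 0.0125). Etfdh, which passes the electrons of these dehydrogenases to the respiratory chain, was at 167, 207 and 197 and 254, 226 and 321 (log2 difference 0.48 ± 0.11 SE, adjusted p = 0.0225). Cpt1a, the gate of acyl groups into mitochondria, was at 132, 156 and 209.8 and 225, 249 and 243 (log2 difference 0.55 ± 0.15 SE, adjusted p = 0.0474), and Acadl and Acads each rose by 0.29. These rises were smaller than the falls of the synthesis genes, and their controls and HF/HS libraries stood apart in all 5. Neither the 6-library nor the 40-group fit called any of the 14, and leaving out 1 library left between 0 and 4.

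Among 16 peroxisomal and microsomal oxidation genes 3 rose and 0 fell (median 0.39), against 3.79% and 4.96% of all genes. Acaa1a and Acaa1b, peroxisomal thiolases, were at 110.0, 134 and 128 and 449, 645 and 575 in controls and at 189, 179 and 233 and 1029, 902 and 1461 on HF/HS (log2 difference 0.69 ± 0.10 SE, adjusted p = 0.00287 and log2 difference 1.01 ± 0.17 SE, adjusted p = 0.00539). The 2 genes are near-identical copies, so their separate levels are uncertain, and the same holds for Saa1 and Saa2, for the Orm genes and for other Cyp4a genes. Hsd17b4, the bifunctional enzyme of the same pathway, rose by 0.33, a call that held in 3 of 6 fits without 1 library. The 6-library fit called Acaa1a alone of the 16 genes, and the 40-group fit called 0. Ppara itself was at 67, 104 and 119.7 and 119, 118 and 123 (adjusted p = 0.196). Cyp4a10, a fatty acid hydroxylase and sensitive PPARα target, was at 67.7, 248 and 253 in controls and at 415, 556 and 969 on HF/HS, without overlap and without passing the test (adjusted p = 0.0576). Ehhadh and Cyp4a14 overlapped between the diets. In males the median of this list was 1.19, and the female effect was lower by the interaction test for 4 of the 16 genes, against 5.79% of all genes. Bdh1, a mitochondrial enzyme of ketone bodies, rose from 101, 116 and 107 to 146, 142 and 156 (log2 difference 0.45 ± 0.08 SE, adjusted p = 0.00636), as the one call among 7 genes of ketone bodies and fuel switching.

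Sterol efflux, bile acid and lipoprotein genes changed in a few members each. Of 10 efflux and LXR target genes Abca1, the transporter that loads sterol on apolipoproteins, rose from 72.6, 79.2 and 68.9 to 92.6, 88 and 108 (log2 difference 0.38 ± 0.10 SE, adjusted p = 0.0318), and Pltp, the phospholipid transfer protein, fell from 42.3, 49.4 and 35.7 to 21.9, 26.8 and 16.4 (log2 difference -0.95 ± 0.20 SE, adjusted p = 0.0168). Abcg5, a subunit of the sterol pump into bile, was at 97.5, 96.1 and 99.7 in controls and at 116, 140.4 and 203 on HF/HS, without overlap (adjusted p = 0.0573). The calls of Abca1 and Pltp each held in 3 of 6 fits without 1 library and in neither the 6-library nor the 40-group fit.

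Of 20 genes of bile acid synthesis and transport 4 rose and 1 fell, against 3.79% and 4.96% of all genes. Abcc3, an efflux pump towards blood, was at 29.4, 25.7 and 32.3 in controls and at 44.6, 63.1 and 72.8 on HF/HS (log2 difference 0.999 ± 0.16 SE, adjusted p = 0.00463), and Abcb4, the phosphatidylcholine flippase of the bile canaliculus, at 84.8, 101 and 106 and 133, 150.1 and 164 (log2 difference 0.61 ± 0.10 SE, adjusted p = 0.00436). Both had every HF/HS library above every control. Hsd3b7, a synthesis enzyme, and the receptor gene Fgfr4 rose by 0.41 and 0.33, and Slc10a1, the uptake carrier from blood, fell from 1069, 975 and 946 to 841, 800.2 and 681 (log2 difference -0.37 ± 0.09 SE, adjusted p = 0.0274). Cyp7a1, the rate-limiting enzyme of bile acid synthesis, was at 165, 38.9 and 33.3 in controls and at 192, 245 and 237 on HF/HS: control library 1 stood far above the other controls, and the gene was not called (adjusted p = 0.0788). The 6-library fit called 2 of these 5 genes, Abcb4 and Abcc3, and the 40-group fit 0.

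Of 14 lipoprotein genes 2 rose and 2 fell, against 3.79% and 4.96% of all genes. Apoc2, the cofactor of lipoprotein lipase, rose from 715, 805 and 807 to 1088, 1078 and 1358 (log2 difference 0.59 ± 0.12 SE, adjusted p = 0.0121), and Apoa4 from 4434, 4531 and 5700.4 to 6823, 6117 and 8653 (log2 difference 0.55 ± 0.16 SE, adjusted p = 0.0494). Apoc3, an inhibitor of lipoprotein clearance, fell from 9832, 9875 and 9054 to 7297, 6659 and 7776 (log2 difference -0.41 ± 0.08 SE, adjusted p = 0.00795), and Mttp, which loads lipid onto apolipoprotein B, from 269, 296 and 286 to 244, 205 and 227 (log2 difference -0.33 ± 0.08 SE, adjusted p = 0.0229). The groups did not overlap in any of the 4. In males Apoc3 was at 5841, 5855 and 6054 on control and at 7266, 7697 and 6635 on HF/HS, and the female minus male difference was -0.69 ± 0.11 SE, adjusted p = 0.00429. The call of Apoa4 held in 2 of 6 fits without 1 library and that of Mttp in 2, while Apoc3 held in 6.

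The largest changes outside these lists were found for genes of several kinds. Pdzk1ip1, a small membrane protein at chr4:115088708-115093894 on mm10, was at 13.5, 19.9 and 17.4 in controls and at 2.75, 0.982 and 1.28 on HF/HS (log2 difference -2.79 ± 0.35 SE, adjusted p = 0.00199). Rdh11, a retinol dehydrogenase at chr12:79175551-79191819, fell from 113, 145 and 93.1 to 34.2, 14 and 24.8 (log2 difference -2.28 ± 0.28 SE, adjusted p = 0.00216). The lowest value of both was in HF/HS library 2, as for the sterol enzymes. Csad at chr15:102176998-102189043, which makes the precursor of taurine, rose from 12.5, 11.9 and 17 to 51.7, 45.3 and 65.1 (log2 difference 1.90 ± 0.18 SE, adjusted p = 0.000307). Fam25c at chr14:34351882-34355393 rose from 52.9, 59.4 and 77.9 to 208, 155 and 320.3 (log2 difference 1.78 ± 0.23 SE, adjusted p = 0.00221). In both genes each HF/HS library was above each control, which the rule for naming the largest differences required.

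Adra2b, an adrenergic receptor, was at 3.22, 2.87 and 3.79 in controls and at 7.12, 8.23 and 16.2 on HF/HS (log2 difference 1.35 ± 0.24 SE, adjusted p = 0.0078), with HF/HS library 3 the highest. Fam131c rose from 3.74, 3.24 and 4.74 to 9.55, 10.01 and 10.3 (log2 difference 1.17 ± 0.13 SE, adjusted p = 0.000521), with little spread within either group. The next 3 genes rose from low values, where log2(value + 1) damps the fold. Adam11, a member of the ADAM family without protease activity, was at 0.454, 0.697 and 0.582 in controls and at 2.48, 5.2 and 4.29 on HF/HS (log2 difference 1.62 ± 0.20 SE, adjusted p = 0.00111), which left it under the male controls at 6.43, 6.36 and 6.44. Slc17a8, a vesicular glutamate transporter, was at 0.653, 2.5 and 1.27 and 5.29, 4.45 and 8.62 (log2 difference 1.55 ± 0.29 SE, adjusted p = 0.00975), and Vmn1r90, a vomeronasal receptor gene, at 0.289, 0.481 and 1.05 and 2.7, 2.93 and 1.94 (log2 difference 1.15 ± 0.25 SE, adjusted p = 0.0177). Wfdc2, a secreted protein with whey acidic protein domains, rose from 6.07, 7.18 and 8.45 to 14.9, 15.4 and 27.6 (log2 difference 1.26 ± 0.28 SE, adjusted p = 0.0203). The calls of Vmn1r90 and Wfdc2 held in 3 and 4 of 6 fits without 1 library, and those of the other genes of these 2 paragraphs in 6.

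Acute phase and metallothionein genes were set apart between the sexes, and Orm1, Prtn3, Mt2, Mt1 and Fgl1 had the 5 largest differences with a higher diet effect in females among the genes that could be named by the rule. In females 1 of 18 acute phase genes rose, Saa4, a constitutive serum amyloid, from 172, 150.4 and 219.7 to 435, 358 and 330.0 (log2 difference 1.05 ± 0.14 SE, adjusted p = 0.00137). The inducible Saa1 was at 70.3, 25.2 and 324 in female controls and at 1556, 610.5 and 66.2 on HF/HS, so that the groups overlapped (adjusted p = 0.32): control library 3 was the highest control and HF/HS library 3 was below it. Both libraries 3 held the same place for Saa2 (47.5, 20.5 and 235 and 1193, 456 and 43.9), Lcn2 (194, 156 and 438 and 823, 901 and 337) and Orm2 (11.8, 5.26 and 32.3 and 77.6, 78.8 and 11.4). In males Saa1 was at 20130.0, 11551 and 4482 on control and at 735, 521 and 609 on HF/HS, and the male median of the list was -1.11 against 0.37 in females.

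The interaction test called 8 of the 18 acute phase genes, all with a higher diet effect in females, against 4.7% of all genes tested. Orm1, an orosomucoid made in the acute phase, was at 10.6, 6.13 and 28.1 in female controls and at 72.1, 84.5 and 27.8 on HF/HS. Its male libraries were at 1513, 1168 and 785 on control and at 114, 63.8 and 70.03 on HF/HS, and the female minus male difference was 5.86 ± 0.84 SE, adjusted p = 0.00646. The difference comes with male controls that were far above all other groups, whereas the female change alone was not called (adjusted p = 0.0672). Fgl1, a secreted hepatocyte protein, was at 1146, 815 and 1820.4 and 2360.5, 2498 and 1132 in females and at 2137, 1993 and 1673 and 319, 179 and 275 in males (difference 3.59 ± 0.53 SE, adjusted p = 0.00637). Prtn3, a protease of neutrophil granules, was at 2.04, 0.434 and 7.63 and 7.46, 9.64 and 0.524 in females and at 52.2, 39.97 and 30.5 and 0.387, 0.182 and 0.371 in males (difference 5.59 ± 1.15 SE, adjusted p = 0.0215). In females its highest control was library 3 and its lowest HF/HS library was 3, as for Saa1, and 4 of 8 neutrophil markers in the table were under 1 in all 6 female libraries.

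Mt2, a metal-binding protein induced by zinc and glucocorticoids, rose in females from 261, 221 and 427 to 817, 1386 and 869 (log2 difference 1.77 ± 0.41 SE, adjusted p = 0.0303). In males it was at 1152, 804 and 520.3 on control and at 86.3, 98.2 and 45 on HF/HS, and the female minus male difference was 5.18 ± 0.58 SE, adjusted p = 0.00244. Mt1, a close relative, overlapped between the diets in females (859, 624 and 1552 and 1609, 2115 and 1464) and was at 1814, 1284 and 847 and 190.3, 191 and 139 in males (difference 3.72 ± 0.51 SE, adjusted p = 0.00451). The female call of Mt2 held in 2 of 6 fits without 1 library, being lost without control 1 or 2 or HF/HS 2 or 3 (adjusted p of 0.0724 to 0.105), and the adjusted p in the 40-group fit was 0.724.

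**Figure D4:**
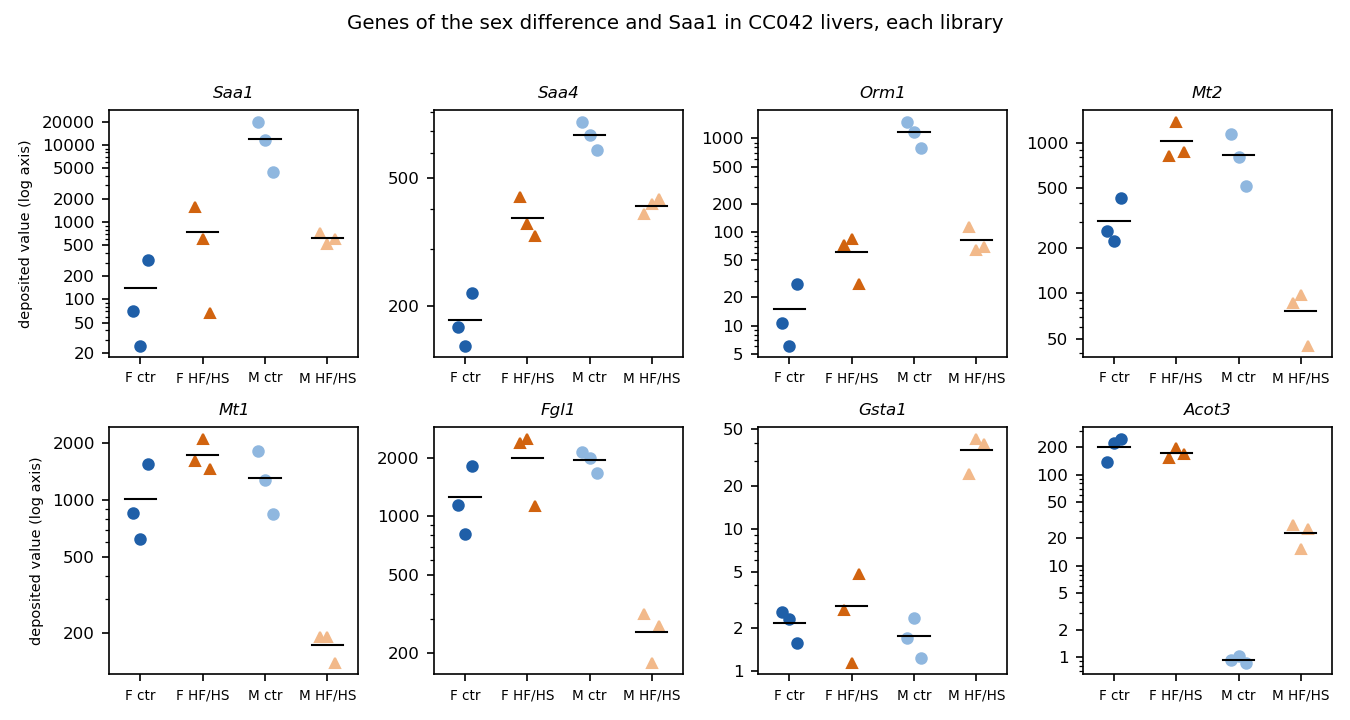
Deposited values on log axes of Saa1, Saa4 and the genes named for the difference between the sexes other than Prtn3, Elovl6, Ddah1 and A4gnt, 1 point for each CC042 library and a black line at each group mean. Male controls lie highest for Saa1, Saa4 and Orm1, and male HF/HS libraries lie lowest for Mt1, Mt2 and Fgl1 and highest for Gsta1.

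In other genes of the interaction the male diet groups lay far apart, without a call in females. Acot3, a peroxisomal acyl-CoA thioesterase, was at 137, 224 and 248 in female controls and at 154, 195 and 167 on HF/HS, and in males at 0.919, 1.01 and 0.866 and 27.8, 15.4 and 25.5 (difference -3.79 ± 0.34 SE, adjusted p = 0.000509). Gsta1, a glutathione transferase, was at 2.6, 2.32 and 1.56 and 2.69, 1.14 and 4.81 in females and at 1.7, 2.36 and 1.24 and 24.4, 43.1 and 39.7 in males (difference -3.52 ± 0.48 SE, adjusted p = 0.00407). Ddah1, which degrades methylated arginine, was at 27.5, 20.6 and 26.4 and 31.6, 36.1 and 27.3 in females and at 2.34, 1.54 and 0.659 and 19.9, 24.7 and 22 in males (difference -2.92 ± 0.31 SE, adjusted p = 0.00103). For Acot3 and Ddah1 the male HF/HS libraries moved towards the female range, and for Gsta1 they passed above it. A4gnt, a glycosyltransferase, was at 1.43, 2.46 and 1.26 and 0.667, 0.124 and 0.973 in females and at 1.46, 0.515 and 0.152 and 6.4, 8.47 and 4.07 in males (difference -2.91 ± 0.46 SE, adjusted p = 0.00542).

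In 18 genes of glutathione and oxidative stress 3 rose and 3 fell in females. Gsta4 fell from 95.8, 79.4 and 76.7 to 53.6, 47.3 and 49.97 (log2 difference -0.72 ± 0.09 SE, adjusted p = 0.00137) while males went from 24.9, 23 and 26.2 to 47.2, 56.1 and 48.7 (difference -1.73 ± 0.13 SE, adjusted p = 4.02e-05), and Gstm3 fell from 7.14, 7.56 and 5.95 to 3.63, 4.31 and 3.82 (log2 difference -0.68 ± 0.10 SE, adjusted p = 0.00298) while males went from 3.69, 2.87 and 3.18 to 6.47, 7.1 and 6.94 (difference -1.57 ± 0.14 SE, adjusted p = 0.000167). For both transferases the female and male HF/HS libraries moved in opposite directions. Gpx1, the main cytosolic glutathione peroxidase, rose from 2282, 2257 and 2316 to 2982, 3165 and 2902 (log2 difference 0.40 ± 0.06 SE, adjusted p = 0.00199), with males at 2022, 1960.5 and 1956 and 2682, 2486 and 2553. Atf3, a stress-induced transcription factor, fell from 1.86, 3.02 and 1.72 to 0.912, 1.06 and 0.736 (log2 difference -0.73 ± 0.15 SE, adjusted p = 0.0132) while males went from 0.78, 1.25 and 0.739 to 3.36, 2.88 and 2.75 (difference -1.79 ± 0.22 SE, adjusted p = 0.00151). Of 20 respiratory chain genes 3 fell and 0 rose in females by at most 0.39, calls that were all lost with the 6 female libraries, with all 40 groups and with the replicate block, and that held in 1 to 3 of 6 fits without 1 library. In the interaction test the diet effect was lower in females for 11 of the 20, against 5.79% of all genes. Cox5b, a cytochrome oxidase subunit, was at 632, 636 and 626 in female controls and at 548, 526 and 548 on HF/HS, and at 577, 558 and 576 and 676, 676 and 619 in males (difference -0.43 ± 0.08 SE, adjusted p = 0.00705). Lower diet effects in females were also called for 6 of 20 interferon response genes, whose female median was -0.07 and male median 0.39.

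Among 15 female-biased liver genes Prlr, the prolactin receptor, rose from 188, 187 and 202 to 305, 251 and 348 (log2 difference 0.63 ± 0.12 SE, adjusted p = 0.00819), and Cyp17a1, a steroid hydroxylase, fell from 389.8, 274 and 350.4 to 166, 194 and 161 (log2 difference -0.94 ± 0.18 SE, adjusted p = 0.01). Of 15 male-biased genes Elovl3 alone was called. The 10 genes of the growth hormone and IGF axis gave 0 calls by limma, with 4 of them at an unadjusted p under 0.05, and 0 calls with the 6 female libraries alone and with all 40 groups. Of 19 xenobiotic metabolism genes 4 rose and 1 fell, among them Cyp2e1, an ethanol-oxidising cytochrome, from 3914, 4282 and 3922 to 4686, 5492 and 5506 (log2 difference 0.37 ± 0.09 SE, adjusted p = 0.024), and the nuclear receptor gene Nr1i3 from 129, 114 and 145 to 160.2, 172 and 159.7 (log2 difference 0.35 ± 0.08 SE, adjusted p = 0.024). The calls of both were lost with the 6 female libraries alone (adjusted p = 0.102 and 0.108).

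Markers of other liver cells gave few calls. None of 13 Kupffer cell markers was called by limma (0 at an unadjusted p under 0.05), and their summed level was 462 to 767 in controls and 485 to 782 on HF/HS. Among lipid-associated macrophage markers only Fabp5 was called. Trem2 was at 1.03, 0.906 and 1.58 in controls and at 1.78, 1.18 and 0.671 on HF/HS, and Gpnmb, Itgax and Mmp12 were under 1 in all 6 libraries. The summed level of these 10 markers was 388 to 530 in controls and 94.1 to 193 on HF/HS, most of which is Fabp5. Of 11 stellate cell and matrix markers Lrat, which esterifies retinol, and Reln fell, from 13.1, 12.9 and 12.3 to 10.02, 9.49 and 10.01 (log2 difference -0.34 ± 0.07 SE, adjusted p = 0.0117) and from 28.2, 30.5 and 33.8 to 24.1, 24.8 and 25.2 (log2 difference -0.31 ± 0.09 SE, adjusted p = 0.0462). The call of Reln held in 1 of 6 fits without 1 library. The collagen gene Col1a1 was under 1 in all 6 libraries, and Col1a2 and Col3a1 were at 1.89, 2.48 and 2.29 and 3.35, 7.33 and 4.13 in controls and at 2.84, 2.51 and 2.97 and 5, 4.47 and 4.64 on HF/HS. The summed stellate and matrix markers were at 305 to 360 in controls and at 225 to 281 on HF/HS, without overlap, and the part of this in the other results was not tested. Endothelial markers summed to 297 to 354 and 270.4 to 309, with 0 of 10 called by limma (4 at an unadjusted p under 0.05), and 11 of 12 lymphocyte markers were under 1 in all 6 libraries.

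Compared with females of 7 other strains, 58 genes had a higher and 52 a lower diet effect in CC042 females, which is 0.488% and 0.437% of the genes tested (limma, 8 strains in the fit). Of these 110 genes 86 were also called for the diet effect in CC042 females, where 3.79% of all genes tested rose and 4.96% fell. Both tests use the same CC042 female difference, so shared calls are no separate support. Rims4, a protein of the synaptic active zone, was at 23.6, 26.6 and 13.8 in CC042 female controls and at 8.66, 3.11 and 7.06 on HF/HS, a log2 difference of -1.65. In the females of the other 7 strains its log2 differences ran from -0.38 to 0.21, and the CC042 effect minus their mean was -1.63 ± 0.20 SE, adjusted p = 3.01e-08. Adgrf1, an adhesion receptor, was at 7.49, 8.08 and 7.38 and 1.29, 2.16 and 0.839, with -1.07 to 0.03 in the other strains and a difference of -1.43 ± 0.27 SE, adjusted p = 0.00086. Smoc2, a matrix-associated calcium-binding protein, was at 6.99, 4.63 and 6.76 and 2.33, 1.23 and 1.18 (difference from the other strains -1.33 ± 0.28 SE, adjusted p = 0.00508). H19, an imprinted noncoding RNA, was at 20.8, 8.35 and 32 and 8.37, 5.21 and 4.59, with 1 control library overlapping the HF/HS range (-1.46 ± 0.39 SE, adjusted p = 0.0495), and Acpp, an acid phosphatase, at 22.5, 29 and 21.9 and 12.6, 8.58 and 8.88 (-1.34 ± 0.31 SE, adjusted p = 0.0183). CC042 males also had log2 differences of -2.59 for Adgrf1, -2.15 for Acpp and -1.31 for Smoc2. Those of Rims4 and H19 in males were -0.49 and 0.23. The interaction test between the sexes called none of these genes.

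In the other direction, Adra2b had a CC042 effect of 1.35 and -0.08 to 0.42 in the other strains (1.21 ± 0.21 SE, adjusted p = 0.000251). Sult2a7, a steroid sulfotransferase, was at 10.3, 21.2 and 6.16 in CC042 female controls and at 30.7, 51.8 and 35 on HF/HS (1.65 ± 0.30 SE, adjusted p = 0.000564). Cyp4a12b, a fatty acid hydroxylase that is male-biased in liver, was at 0.464, 2.75 and 0.738 and 8.54, 3 and 28.8, with males at 214, 203 and 193 on the control diet (1.81 ± 0.49 SE, adjusted p = 0.0495). The diet effect in CC042 females alone was not called for Sult2a7, Cyp4a12b or Orm1 (adjusted p = 0.063, 0.066 and 0.0672). Cyp4a12b shares sequence with its near-identical neighbours in the Cyp4a cluster, so its level is uncertain. Fam25c (1.44 ± 0.38 SE, adjusted p = 0.0453) and Orm1 (2.02 ± 0.50 SE, adjusted p = 0.0291) were the other 2 of the 5 largest. In the other strains Sult2a7 ran from -0.48 to 0.39 and Fam25c from -0.998 to 0.99. Cyp4a12b reached 1.71 and Orm1 1.31 in the highest of these strains. Among members of the lists Fabp2 was called as well (0.96 ± 0.26 SE, adjusted p = 0.0495). Its log2 difference was 1.48 in CC042 and ran from -0.09 to 1.27 in the other strains. Females of CC003 and CC060, which were not in this fit, were at 1.42 and 1.2, so the Fabp2 rise was not particular to CC042.

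None of the 21 cholesterol synthesis genes passed this test, although the list medians were -1.78 and -1.63 in CC042 and -0.96 and -0.87 for the mean of the other strains. Sqle was at -1.82 ± 0.63 SE, adjusted p = 0.169 and Idi1 at -0.30 ± 0.47 SE, adjusted p = 0.838. The other strains themselves ran from -3.77 to -0.40 for Sqle. Without control library 1, control library 2 or HF/HS library 3 the number of called genes was 54, 46 and 35 in place of 110. With a pseudocount of 0.1 it was 59 and with quantile normalization 273. Of the 10 genes named from the strain comparison, 3 stayed called with a pseudocount of 0.1 and 5 without HF/HS library 3. With quantile normalization all 10 stayed called.

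**Figure D5:**
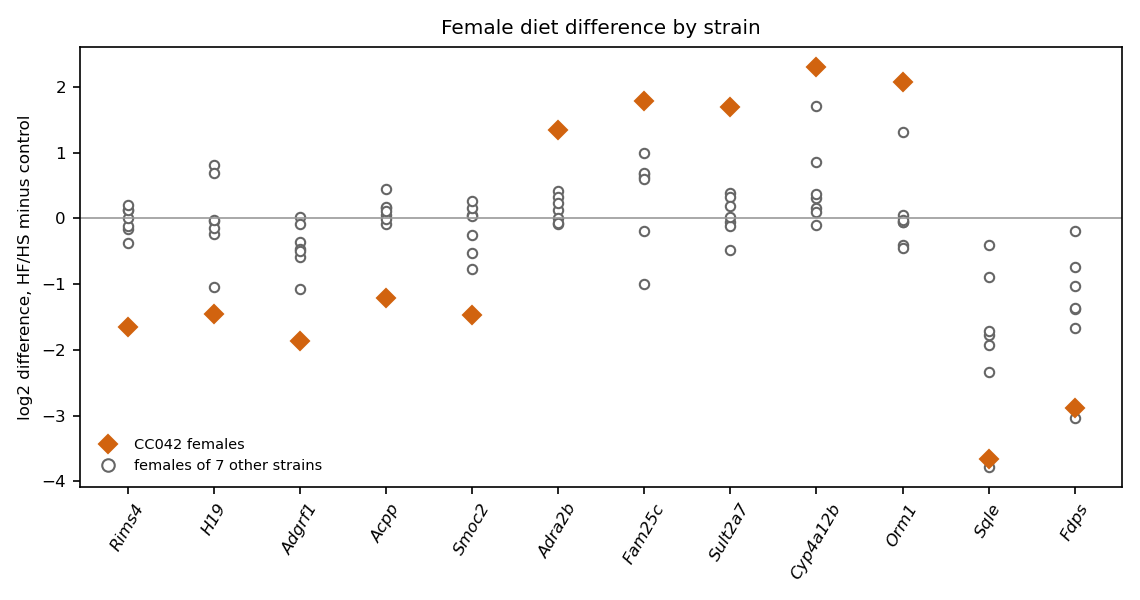
Log2 difference, HF/HS minus control, in females of each strain for the 10 genes named from the strain comparison and for Sqle and Fdps, with CC042 as diamonds and the 7 other strains as open circles. CC042 lies outside the range of the other strains for the 10 genes named from the strain comparison, and within it for Sqle and Fdps.

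In all, 5 genes were listed at 0 in the 3 HF/HS libraries and above 1 in the 3 controls, and 0 genes the other way round. Mup10 and Mup2, of the 3 with the highest controls, encode major urinary proteins, whose gene copies are nearly identical in sequence. Mup10 was listed at 4041, 2764 and 3081 in controls and at 0 in the 3 HF/HS libraries, Mup2 at 3568, 2449 and 2758 and at 0, and Gm2083 at 1018, 3641 and 4013 and at 0. Mup2 and Gm2083 are symbols that occur in more than 1 row. Since Alb was also listed at 0 in all 6 libraries, a 0 here can be a failed estimate, and no fold or direction is given.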

How the data were processed

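Liver RNA of 120 libraries was deposited as 1 table of 24883 rows and 120 columns, in FPKM-like units that the authors normalized. The genome build was mm10, and the tools named, without a role, were Cufflinks 2.2.1, Bowtie2 2.2.5.0 and TopHat2 2.1.1, all per the submitters' processing notes. How the values were scaled, and with which annotation and filters, is not given in the sources used here. These deposited FPKM values are not counts, so depth is unknown and no counting interval is given. The labels' protocols name 2 stranded kits, for mRNA and for RNA depleted of ribosomal RNA, and do not tie them to libraries. A single row lacked a value and was dropped. Rows whose symbol is repeated (821) were named only where stated. Table starts were shifted by 1 to count from 1.

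Groups came from the labels. Values were used as log2(value + 1) and tested with limma 3.58.1 in R 4.3.3 (statmod 1.5.0), with 1 mean per group, a trended robust prior and two-sided p-values adjusted by Benjamini and Hochberg over 11896 genes. A gene was called at an adjusted p under 0.05. Called genes alone are said to have risen or fallen. The diet effect in CC042 females and its difference from males were fitted on the 12 CC042 libraries. The difference from 7 other strains was fitted on 8 strains, without CC003 and CC060, whose libraries stood apart in Snord104, a small nucleolar RNA (378974 to 929515 in CC003, 0 in CC060, 13486 to 95492 in the other 8), and without 2 CC040 columns with identical values. The fits were tested on simulated data with known changes. The alternatives tried were other pseudocounts, filters, scalings and priors, the replicate number as a block, other sets of libraries and leaving out each female library.

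The 39 lists hold 512 genes, 507 of them in the table and 3 of these under an older symbol. The members and lists were chosen with earlier results of these data known. The rule for names took the 12 largest differences per direction among called genes without overlap and without a 0, up to 4 called members per list by lowest p, and the 5 largest per direction in each of the 2 difference tests. It passed over repeated symbols and symbols of predicted genes. Other members of a list are named with their values to describe the list, after their values were seen, as are genes at 0 in 1 group. Promoters came from RefSeq (32851 promoters of 27025 genes, all starts of a gene counted), and motifs were searched on both strands. The values of some list members are not reported here.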

Additional observations from a re-analysis of the deposited data

Results flagged for a closer look

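In CC042, 1248 genes differed in their diet effect between females and males by the interaction test, and those that the text names, other than Mup10 with its values of 0, are given here with the female minus male effect on the log2 scale in parentheses. A higher effect in females was found for Orm1 (5.86), Prtn3 (5.59), Mt2 (5.18), Mt1 (3.72), Fgl1 (3.59), Elovl3 (2.32), Saa4 (1.78), Adam11 (1.78), Fam25c (1.45), Cyp3a13 (1.03) and Neat1 (0.94). The effect was lower in females by over 2.5 for Acot3 (-3.79), Gsta1 (-3.52), Elovl6 (-3.27), Ddah1 (-2.92), A4gnt (-2.91), Mvd (-2.71), Acss2 (-2.61) and Acly (-2.53). It was lower by 1.5 to 2.5 for Me1 (-2.49), Fdps (-2.05), Pdzk1ip1 (-1.90), Acaca (-1.80), Atf3 (-1.79), Nsdhl (-1.77), Gsta4 (-1.73), Rdh11 (-1.64), Gstm3 (-1.57), Cyp51 (-1.56), Gpam (-1.52) and Pltp (-1.51). Smaller differences of this direction were those of Abcc3 (-1.34), Pmvk (-1.31), G6pdx (-1.25), Apoa4 (-1.24), Col3a1 (-1.24), Pgd (-1.23), Ccnd1 (-1.14), Tm7sf2 (-1.11), Idi1 (-1.09) and Slc2a2 (-0.98), and of Lss (-0.89), Acaa1b (-0.87), Khk (-0.87), Fdft1 (-0.84), Hsd17b7 (-0.79), Nr1i3 (-0.71), Acat2 (-0.70), Apoc3 (-0.69), Dgat2 (-0.56), Mttp (-0.53), Ndufb8 (-0.53), Pemt (-0.43), Cox5b (-0.43), Bdh1 (-0.39) and Uqcrc1 (-0.29). In Mt2, Mt1, Orm1, Fgl1 and Prtn3 the male controls were the highest male libraries, and in Acot3, Gsta1, Ddah1 and A4gnt the male controls were the lowest male libraries, with the values of every library given above. The part of the male controls in these differences was not tested.

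Against the females of 7 other strains, 110 genes differed by the test of the difference. The CC042 female effect minus the mean of the others, on the log2 scale, was positive for Orm1 (2.02), Cyp4a12b (1.81), Sult2a7 (1.65), Fam25c (1.44), Adra2b (1.21) and Fabp2 (0.96). It was negative for Rims4 (-1.63), H19 (-1.46), Adgrf1 (-1.43), Acpp (-1.34) and Smoc2 (-1.33). No test for a single outlying library was made, since each group held at most 3.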

How the results depend on the processing

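The number of called genes depended on which libraries set the spread, and the directions of the named genes did not change, apart from Gsta1, which was not called and had a log2 difference of 0.19 with all libraries, of -0.15 without HF/HS library 3 and of 0.56 without HF/HS library 2. For the diet effect, 1041 genes were called with the 12 CC042 libraries, 473 with 8 strains and 193 with all 40 groups and the replicate block, 2 alternatives added after the data had been seen. Other fits gave 195 genes with all 40 groups and 236 with the 6 female libraries alone. Leaving out 1 library gave 561 to 1093 genes: 561 without control 1, 572 without control 2 and 657 without HF/HS 3. In all 6 of these fits 414 of the 1041 genes stayed called. For the difference from males, 1248 genes were called, 75 with all 40 groups and 690 to 1360 without 1 library, with 800 without control 1 and 690 without control 2. For the difference from 7 other strains, 110 genes were called, 59 with a pseudocount of 0.1, 62 with a mean of at least 5, 273 with quantile normalization, 52 with all 10 strains and 35 to 115 without 1 library. The other settings tried, apart from the replicate block, kept the 3 counts within 1.5 times.

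The libraries share replicate numbers between the diets. Deviations of same-numbered libraries had weak correlations that were all positive (0.204, 0.053 and 0.153 in females and 0.081, 0.225 and 0.031 in males). Those of unlike numbers ran from -0.261 to 0.173. Each female control correlated best with the HF/HS library of its own number. The labels do not call the numbers pairs, and the main fit did not take them as pairs. With the replicate block 664 genes were called for the diet effect, 605 of them among the 1041, and 680 for the difference from males.

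Of the 98 genes that the rule for names took and that were called for the diet effect, 58 stayed called in each of the 6 fits without 1 library, 73 with the block, 45 with 8 strains, 42 with the 6 female libraries and 32 with all 40 groups. The number that lost the call was 34 without control 1 (adjusted p 0.0514 to 0.148), 26 without control 2 (0.0601 to 0.152), 13 without control 3 (0.055 to 0.126), 10 without HF/HS 1 (0.0503 to 0.0985), 24 without HF/HS 2 (0.0509 to 0.111) and 23 without HF/HS 3 (0.0508 to 0.151). The cause of these losses was not tested, other than that each fit held fewer libraries. Depth is unknown, so low values carry an unknown counting error. Values of 0 may be failed estimates.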

Other observations

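Among genes of amino acid and one-carbon metabolism, 1 of 20 rose and 3 fell in CC042 females. Pemt, which methylates phosphatidylethanolamine to phosphatidylcholine, was at 683, 703 and 669 in controls and at 527, 455 and 460.2 on HF/HS (log2 difference -0.51 ± 0.07 SE, adjusted p = 0.00178 by limma). Gnmt, the glycine methyltransferase, fell from 4063, 3984 and 3634 to 2418, 2507 and 3095 (-0.55 ± 0.10 SE, adjusted p = 0.00811). Tat, the tyrosine aminotransferase, fell from 2349.8, 2458 and 1548 to 949.6, 992 and 1037, a call that held in 1 of 6 fits without 1 library. Bhmt, which remethylates homocysteine with betaine, rose from 2864 ± 206 (SD, n = 3) to 5213 ± 1922, a call that held in 2 of these 6 fits. In the circadian clock list 2 of 16 genes fell. Cry1, a clock repressor, went from 11.5, 12.1 and 13.3 to 5.76, 8.07 and 8.65 (-0.66 ± 0.16 SE, adjusted p = 0.0248), a call that held in 2 of 6 fits without 1 library and was lost with the 6 female libraries alone and with all 40 groups (adjusted p = 0.0583 and 0.378). The labels give no hour of sampling, and its part in these values was not tested.

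In the list of endoplasmic reticulum stress 2 of 15 genes fell, Atf3 and Atf4, and 0 rose. The call of Atf4 held in 1 of 6 fits without 1 library, and the fits of 6 libraries and of 40 groups called 0 of the list. Of 4 tested cell division genes, the cyclin gene Ccna2 rose and Ccnd1 fell, calls that held in 5 and 1 of 6 fits without 1 library. The interferon list had 1 rise, of Bst2, a membrane-bound restriction factor, from 120.2, 131 and 119 to 139.9, 149.6 and 150.4, which held in 2 of these 6 fits. Of 9 cytokine and chemokine genes 0 were called by limma, and 2 had an unadjusted p under 0.05. Transcripts known for lacking a poly(A) tail in part or whole were listed because the labels name both an mRNA kit and a depletion kit: of 10 tested, 1 rose and 3 fell. Rpph1, the RNA of ribonuclease P, was at 61745, 56234 and 67359 in controls and at 48971, 39537 and 41608 on HF/HS (-0.51 ± 0.09 SE, adjusted p = 0.00636). Rmrp fell by 0.34 and Neat1 rose by 0.61, calls that held in 1 and in 6 of these 6 fits. No marker of bile duct (3 tested), neutrophils (4), red blood cells (1), fat cells (2) or pancreas (1) was called by limma, with 1 fat cell marker at an unadjusted p under 0.05.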
